A study of Mus musculus with 32 samples.

Results

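The 9 genes described here act on vitamin A in the liver. They are Dhrs9, Rdh16, Aldh1a1, Aldh1a7, Aldh1a2, Cyp26a1, Cyp26b1, Rbp4 and Lrat, and they were taken by name from the 54532 genes of a liver RNA-Seq count table. Dhrs9 was included because it remained higher in SC-435-treated knockout males than in wild-type males on chow, so its values in any comparison with males are a description and carry no test. The other 8 genes were added for their place in retinoid metabolism.

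RNA was sequenced from the livers of 32 C57BL/6 mice at 12 weeks of age. Each of the 8 groups held 4 mice: female WT chow, female KO chow, female WT SC-435, female KO SC-435 and the same 4 groups of males. KO mice were Cyp2c70-/-, descended from an F0 animal whose exon 2 region had been removed with CRISPR-Cas9, and WT mice carried the intact gene. SC-435, an inhibitor of the ileal bile acid transporter (IBAT), was given in the chow at 0.006% (about 11 mg/kg/day) from after weaning, and the chow groups received the diet without it. Cyp2c70 is the hepatic enzyme that makes the muricholic acids of the mouse.

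Retinol reaches the liver in lipoproteins, is esterified for storage in stellate cells and returns to the blood on retinol binding protein from hepatocytes. Within cells, alcohol and short-chain dehydrogenases oxidize retinol to retinal, aldehyde dehydrogenases oxidize retinal to retinoic acid, and CYP26 enzymes hydroxylate retinoic acid for disposal. Retinoic acid acts on gene expression through the RAR and RXR nuclear receptors, and Cyp26a1 is among the genes it induces.

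The genes lie on 6 chromosomes of GRCm38, and each is protein coding. Dhrs9 (ENSMUSG00000027068) is at chr2:69380445-69404533, Rdh16 (ENSMUSG00000069456) at chr10:127801152-127846565, Aldh1a2 (ENSMUSG00000013584) at chr9:71215789-71296243, Cyp26b1 (ENSMUSG00000063415) at chr6:84571414-84593908 and Lrat (ENSMUSG00000028003) at chr3:82892579-82903973. The other 4 are on chromosome 19, as is Cyp2c70. Cyp26a1 (ENSMUSG00000024987, chr19:37697808-37701528) lies 2.47 Mb and Rbp4 (ENSMUSG00000024990, chr19:38116620-38125321) 2.05 Mb from the deleted gene, measured between gene centres, whereas Aldh1a1 (ENSMUSG00000053279, chr19:20492715-20643462) and Aldh1a7 (ENSMUSG00000024747, chr19:20692953-20727562) are 19.6 and 19.5 Mb away. Aldh1a1 and Aldh1a7 are paralogs with 49490 bases between them.

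The bases just upstream of the start sites are shown for both pairs that the results set side by side, the CYP26 enzymes and the aldehyde dehydrogenase paralogs. A retinoic acid response element was searched for as 2 hexamers in the same orientation, on both strands, separated by 5, 2 or 1 bases, within 250 bases before to 50 bases after each start in the RefSeq promoters of GRCm38.p6. The hexamer allowed was AGGTCA itself, a variant written AGTTCA in these letters, another variant with the letters GGTTCA, or the form that reads GGGTCA. All 9 genes had a promoter in that set, 11 promoters in all, and a match was found in 1 of them, that of Cyp26a1. Of all 32851 promoters, 0.588% held such a pair at any of the 3 spacings and 0.0974% held it at a spacing of 5. In Cyp26a1 the hexamers were 5 bases apart on the strand opposite to the gene, beginning 32 bases before the start, and are in capitals in the 100 bases before the start (chr19:37697708-37697807, plus strand). The same stretch of Cyp26b1 (chr6:84593811-84593910, minus strand) held no such pair. The RefSeq start used for Cyp26b1 lies inside the counted gene, which runs to 84593908, so most of this stretch is within that gene.
Cyp26a1: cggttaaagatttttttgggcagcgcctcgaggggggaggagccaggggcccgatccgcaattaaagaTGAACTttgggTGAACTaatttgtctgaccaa
Cyp26b1: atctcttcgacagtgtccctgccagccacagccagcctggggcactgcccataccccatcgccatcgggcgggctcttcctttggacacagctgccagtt

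Aldh1a1 and Aldh1a7 shared an unbroken run of 65 bases upstream of their starts, shown in capitals within the 150 bases before the start of each (chr19:20601818-20601967, plus strand, and chr19:20727557-20727706, minus strand). This is the second of 2 starts that RefSeq gives for Aldh1a1. Without gaps, 108 of the 150 bases were equal, against 39 of 150 for the other Aldh1a1 start.
Aldh1a1: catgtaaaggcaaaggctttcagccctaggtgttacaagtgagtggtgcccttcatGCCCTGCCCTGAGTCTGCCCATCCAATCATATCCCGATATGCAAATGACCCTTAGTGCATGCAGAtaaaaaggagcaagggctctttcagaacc
Aldh1a7: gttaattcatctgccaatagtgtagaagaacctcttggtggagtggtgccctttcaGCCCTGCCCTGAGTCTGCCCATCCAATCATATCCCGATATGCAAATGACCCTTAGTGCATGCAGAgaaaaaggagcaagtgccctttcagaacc

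Long exact matches between the Aldh1a7 and Aldh1a1 transcripts were few. Of the 2017 words of 50 bases in Aldh1a7, 151 (7.49%) also occurred in Aldh1a1, and 1 of the 1967 words of 100 bases did. Exact words show where reads could be shared and do not measure how similar the transcripts are. Rdh16 was the least unique, since 872 of its 6239 words of 50 bases (14%) occurred in another gene, mainly the neighbouring Rdh9, Rdh18-ps and Rdh16f1, so its counts may include or lose reads of those copies. Dhrs9 shared 0.213% of its words, and Aldh1a2, Cyp26a1, Cyp26b1, Rbp4 and Lrat shared 0%.

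Libraries held 36476021 to 44771350 counted reads, with a median of 42232543. Cyp2c70, counted over the whole gene, was at 271 to 838 CPM (counts per 1000000 reads, scaled by TMM) in the 16 WT livers and at 109 to 188 CPM in the 16 KO livers. Hepatocyte markers were abundant in every library, at 53700 to 186000 summed CPM over 7 genes. The library of male WT chow replicate 1 stood apart: its TMM factor was 0.622, against 0.911 to 1.26 in the other 31, and its mean correlation with its own group was 0.929, against 0.971 to 0.996. Where leaving it out changed a call or a count, the value without it is also given. Levels are in CPM, as mean ± SD over 4 mice, and a gene passed where edgeR's quasi-likelihood test, adjusted by Benjamini-Hochberg over every gene tested in that comparison, gave a value under 0.05.

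Rbp4 was the most abundant of the 9 at 2040 CPM per kb of deposited gene length over all mice. Aldh1a1 followed at 324 and Aldh1a7 at 135 CPM per kb. Rdh16 (23.7), Cyp26a1 (19.2), Lrat (4.23), Cyp26b1 (3.29) and Dhrs9 (2.56) were lower on that scale, and Aldh1a2 was near the limit of detection at 0.19 CPM per kb, with 4 to 74 reads in a library. The ratio of the highest to the lowest mouse differed widely. It was 58.4 for Cyp26b1, 35.8 for Cyp26a1 and 29.2 for Dhrs9, but 4.51 for Aldh1a7, 4.3 for Aldh1a1 and 3.43 for Rbp4.

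**Figure D1:**
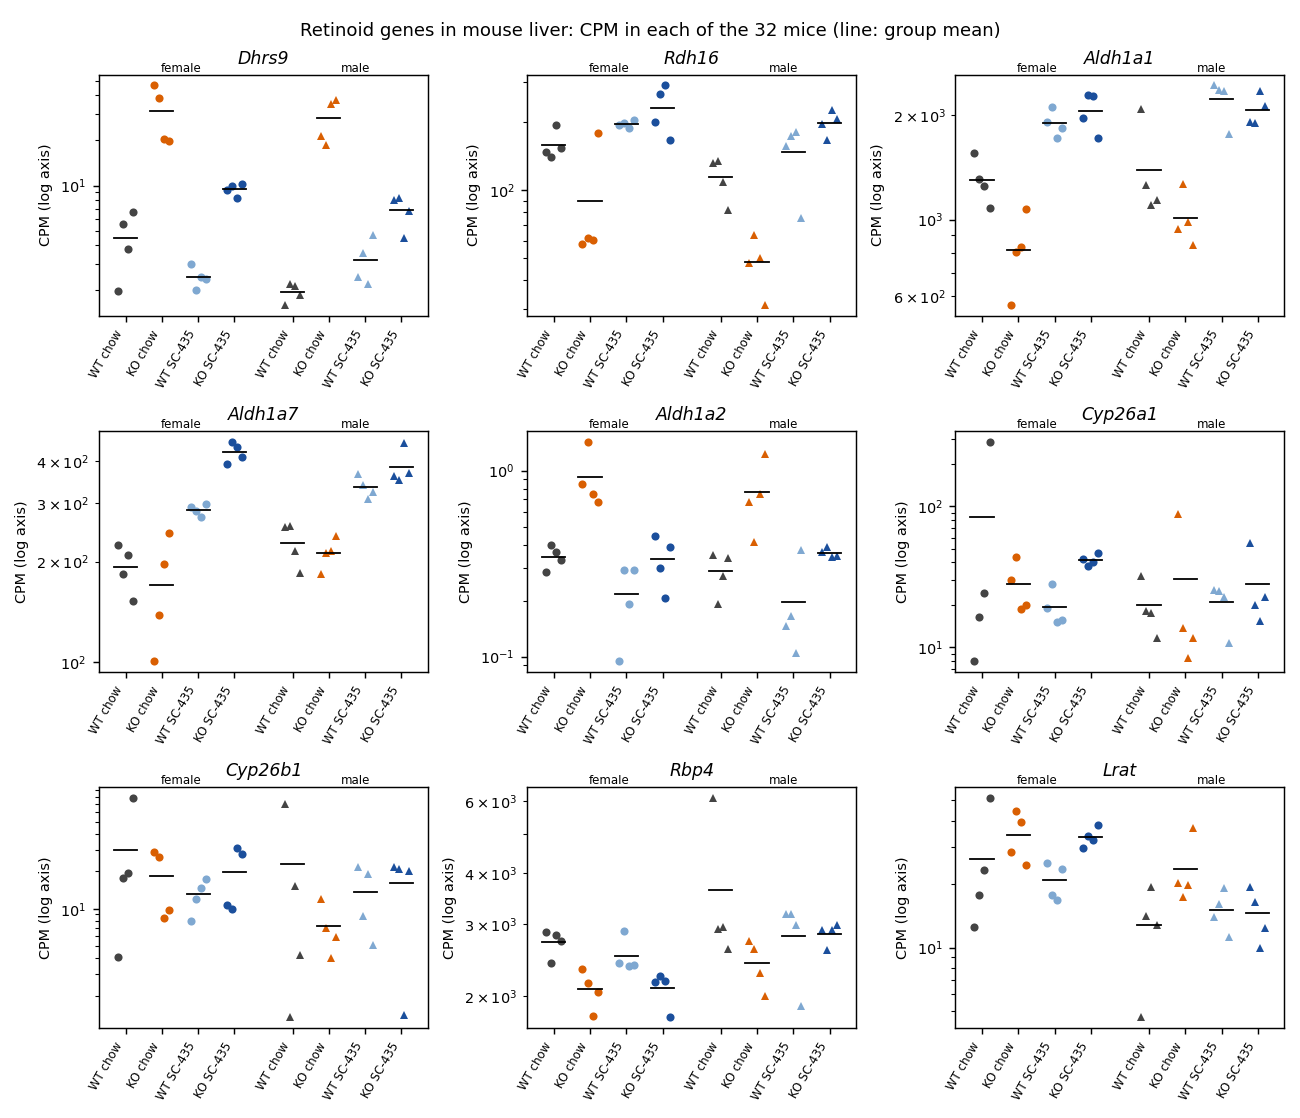
CPM of each retinoid gene on a log axis, 1 point per mouse (circles female, triangles male, 4 per group), with a line at each group mean. Dhrs9 lay highest in both KO chow groups (18.8 to 46.6 CPM), Aldh1a1 and Aldh1a7 lay higher in the SC-435 groups than in the chow groups of the same sex and genotype by their means, and Cyp26a1 and Cyp26b1 spread widely within groups.

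Dhrs9 encodes a short-chain dehydrogenase that oxidizes retinol and certain steroids. It was low in WT females on chow, at 1.99, 5.5, 3.74 and 6.7 CPM, and high in KO females on chow, at 46.6, 38.6, 20.5 and 19.8 CPM. The groups did not overlap, and the 6.96-fold rise passed the test (log2 fold change 2.80, SE 0.39, edgeR adjusted p = 0.00241). In KO females fed SC-435 it was 9.28, 9.88, 8.23 and 10.3 CPM, a fall by 1.73 on the log2 scale from KO females on chow (SE 0.27, edgeR adjusted p = 0.004), again without overlap.

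The treated KO females nevertheless did not reach the WT level. Their mean of 9.43 ± 0.906 CPM was 2.10-fold that of WT females on chow (4.48 ± 2.06 CPM; log2 fold change 1.07, SE 0.28, edgeR adjusted p = 0.0247), with all 4 treated KO mice above all 4 WT mice. That call was lost without female WT chow replicate 3, or without female KO SC-435 replicate 1, 2 or 4 (edgeR adjusted p from 0.0506 to 0.0696), while its log2 fold change stayed between 0.83 and 1.33. WT females on SC-435 had 2.97, 2, 2.44 and 2.37 CPM. They were lower than WT females on chow by 0.88 on the log2 scale (SE 0.32), a difference that did not pass (edgeR adjusted p = 0.162) except without female WT chow replicate 1 (-1.12, edgeR adjusted p = 0.0285).

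Males are given as a description, since Dhrs9 was picked on them. WT males on chow had 1.6, 2.19, 2.13 and 1.87 CPM and KO males on chow 21.3, 18.8, 34.9 and 37.2 CPM. On SC-435, WT males had 2.45, 3.54, 2.19 and 4.64 CPM and KO males 8.06, 8.25, 4.46 and 6.72 CPM. The highest WT male on SC-435 (4.64 CPM) thus lay just above the lowest treated KO male (4.46 CPM). Fitted log2 fold changes were 3.88 for KO against WT on chow, -2.03 for SC-435 against chow in KO, 0.72 in WT, and 1.82 for treated KO against WT on chow. Ordered by mean over the 8 groups, Dhrs9 ran from both KO chow groups (31.4 ± 13.4 CPM in females, 28.1 ± 9.33 CPM in males) to the treated KO groups (9.43 ± 0.906 and 6.87 ± 1.74 CPM) and the 4 WT groups (4.48 ± 2.06 to 1.95 ± 0.271 CPM). The only neighbours in that order without overlap were male KO chow and female KO SC-435.

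Levels over the 32 libraries were compared among 12542 genes with a mean count of at least 50 and reads in every library. Those that followed Dhrs9 most closely were Spp1 (Spearman rho 0.94), Epcam (0.90), Ccdc120 (0.90), Elovl7 (0.89) and Rragd (0.89). These libraries share 8 groups and, with them, the differences between groups, so the coefficients are a description. Spp1, which encodes osteopontin, and Epcam, an epithelial adhesion molecule, are also in the list of 8 cholangiocyte markers examined here, which also holds the biliary keratins Krt19 and Krt7. Bulk liver cannot tell more cells of a type from more RNA per cell.

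The summed level of the 8 cholangiocyte markers was 36.7 to 70.5 CPM in WT females on chow, 133 to 292 CPM in KO females on chow and 98.8 to 143 CPM in KO females on SC-435. In males it was 25.2 to 35.4, 145 to 1180 and 49.7 to 60.4 CPM in the corresponding groups. On chow, 5 of the 7 markers tested were higher in KO than in WT females (median log2 fold change 1.56, against -0.02 over all genes tested, of which 9.83% were higher). In males 4 of 7 were higher (0.933% of all genes), or 6 of 7 without male WT chow replicate 1 (4.38% of all genes). On SC-435, 2 of 7 fell in KO females (9.23% of all genes) and 5 of 7 in KO males (8.36% of all genes). Spp1 alone, the gene most like Dhrs9, made up 82.9% to 87.8% of the sum in KO females and 83.7% to 97.1% in KO males on chow. The other 7 markers summed to 8.48 to 15.5 CPM in WT females, 16.1 to 41.1 CPM in KO females and 16.3 to 23.1 CPM in treated KO females, and to 6.33 to 13.7, 21.1 to 38.6 and 9.52 to 15 CPM in the corresponding male groups. Within a group the order was not always shared: KO female replicate 1 on chow had the highest Dhrs9 of all mice (46.6 CPM) with a marker sum of 174 CPM, and replicate 3 had 20.5 CPM of Dhrs9 with the group's highest sum, 292 CPM. In KO males on chow the order was the same for both, with Dhrs9 at 18.8, 21.3, 34.9 and 37.2 CPM beside sums of 145, 171, 492 and 1180 CPM. The 8 macrophage markers also differed, 7 being higher in KO than in WT females on chow (summed CPM 466 to 713 against 331 to 379; 9.83% of all genes were higher) and 8 lower in KO females on SC-435 than on chow (261 to 410; 9.23% of all genes were lower). In males the macrophage sum was 250 to 441 CPM in WT and 266 to 987 CPM in KO mice on chow. The 987 CPM was KO replicate 4, and the others had 266 to 379 CPM. KO males on SC-435 had 235 to 376 CPM, and these ranges overlapped. Of the macrophage markers, 2 passed between KO and WT males on chow (1.08% of all genes passed). Without male WT chow replicate 1, 2 of 8 were higher (4.38% of all genes). The part of either cell type in the Dhrs9 level was not tested.

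**Figure D2:**
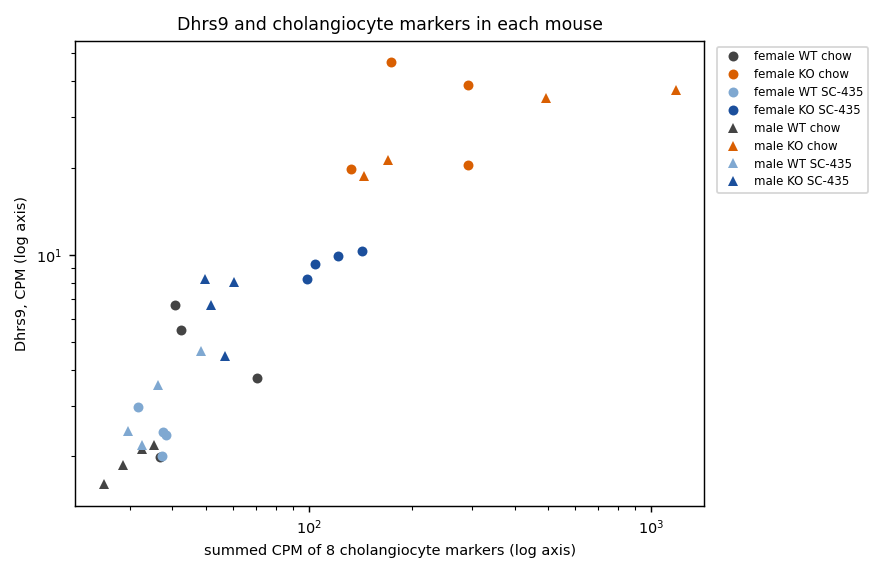
Dhrs9 in CPM against the summed CPM of 8 cholangiocyte markers, both on log axes, 1 point per mouse. WT livers lie at the lower left (Dhrs9 at most 6.7 CPM, marker sums at most 70.5 CPM), KO livers on chow at the upper right (at least 18.8 and 133 CPM), and treated KO livers at 4.46 to 10.3 CPM of Dhrs9, the lowest of them within the WT range.

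Rdh16 is a hepatic retinol dehydrogenase of the same enzyme class and had its lowest values where Dhrs9 had its highest, in KO mice on chow. KO males on chow had 47.8, 63.2, 50.5 and 31.3 CPM, all below the 132, 134, 109 and 81.8 CPM of WT males. Their log2 difference of -1.21 (SE 0.25) narrowly missed the threshold (edgeR adjusted p = 0.0582) and passed without male WT chow replicate 1 (-1.15, edgeR adjusted p = 0.0299). In KO males fed SC-435 the values were 196, 166, 225 and 206 CPM, a 4.12-fold rise over KO males on chow (log2 fold change 2.04, SE 0.20, edgeR adjusted p = 0.000561). No KO male on chow reached the level of a treated one, and the call held without any one of the 8 libraries.

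In KO females on chow 3 livers had 57.7, 61.4 and 60.2 CPM of Rdh16, whereas replicate 4 had 179 CPM, within the WT range of 140 to 193 CPM. The comparison with WT did not pass with that mouse (log2 fold change -0.83, SE 0.35, edgeR adjusted p = 0.136) and passed without it (-1.39, edgeR adjusted p = 0.000142). On SC-435, KO females had 200, 265, 289 and 166 CPM, higher than on chow by a log2 fold change of 1.36 (SE 0.37, edgeR adjusted p = 0.0304), with the 4 KO chow and 4 KO SC-435 values overlapping only through replicate 4 of the chow group. That rise held in 2 of the 8 fits that leave out a library, those without replicate 4 of either group, and otherwise gave adjusted p values up to 0.0861 by edgeR. In WT mice the effect of SC-435 on Rdh16 did not pass. Means were 158 ± 23.8 and 195 ± 6.98 CPM in females on chow and SC-435 (log2 fold change 0.30, SE 0.10, edgeR adjusted p = 0.142) and 114 ± 24.3 and 147 ± 48.8 CPM in males (0.36, SE 0.29, edgeR adjusted p = 0.836). Without female WT chow replicate 3 the female difference passed at 0.41 (edgeR adjusted p = 0.0387).

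Whether SC-435 raised Rdh16 more in KO than in WT mice was asked of the interaction. It was 1.66 on the log2 scale in males (SE 0.37, edgeR adjusted p = 0.0912; 1.58 and 0.0586 without male WT chow replicate 1) and 1.06 in females (SE 0.41, edgeR adjusted p = 0.16), and neither passed by edgeR. DESeq2 called the male value (1.69, DESeq2 adjusted p = 0.00338). Without female KO chow replicate 4 the female value was 1.64 (edgeR adjusted p = 0.000298). The means of treated KO mice lay above those of WT mice on chow, by 0.54 on the log2 scale in females (SE 0.17, edgeR adjusted p = 0.0526) and by 0.81 in males (SE 0.20, edgeR adjusted p = 0.197; 0.88 and 0.0106 without male WT chow replicate 1). The female difference passed without female WT chow replicate 3 (0.65, edgeR adjusted p = 0.0352) or female KO SC-435 replicate 4 (0.67, edgeR adjusted p = 0.0195).

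Aldh1a1, the main retinaldehyde dehydrogenase of adult mouse liver, was lower in KO than in WT females on chow, and in females of either genotype it was higher on SC-435. WT females on chow had 1560, 1310, 1250 and 1080 CPM and KO females 568, 808, 832 and 1070 CPM. The fall of 0.67 on the log2 scale (SE 0.19) passed at an edgeR adjusted p = 0.0386, but in only 2 of 8 fits that leave out a library, those without replicate 4 of either group (otherwise 0.069 to 0.106). KO females on SC-435 had 1970, 2290, 2270 and 1720 CPM, 2.52-fold the KO chow level (log2 fold change 1.33, SE 0.18, edgeR adjusted p = 0.00262). The groups did not overlap, and the call held without any one library.

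KO males had 939, 1270, 983 and 847 CPM on chow and 1910, 1900, 2360 and 2130 CPM on SC-435, a log2 fold change of 1.04 (SE 0.15, edgeR adjusted p = 0.00375). Against WT males on chow, at 2080, 1260, 1100 and 1140 CPM, KO males on chow did not pass (-0.43, SE 0.26, edgeR adjusted p = 0.453; -0.19 and 0.459 without male WT chow replicate 1). The 2080 CPM belongs to the library that stood apart. WT females on SC-435 had 1910, 2120, 1720 and 1840 CPM, above all WT females on chow (log2 fold change 0.54, SE 0.12, edgeR adjusted p = 0.0345). That call was lost without any library other than female WT chow replicate 1 (edgeR adjusted p from 0.0575 to 0.0958). WT males on SC-435 had 2440, 2370, 2360 and 1770 CPM, and the log2 fold change of 0.68 (SE 0.26, edgeR adjusted p = 0.733) became 0.94 without male WT chow replicate 1 (edgeR adjusted p = 0.0177).

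Aldh1a7, a paralog of Aldh1a1 that lacks its strong activity on retinal, rose with it in KO mice on SC-435, while KO and WT mice on chow did not differ past the test. KO and WT mice on chow overlapped in both sexes, at 170 ± 62.9 and 193 ± 31.2 CPM in females (log2 fold change -0.19, SE 0.24, edgeR adjusted p = 0.637) and at 212 ± 22.0 and 228 ± 34.1 CPM in males (-0.07, SE 0.18, edgeR adjusted p = 0.884). On SC-435, KO females had 392, 457, 440 and 411 CPM against 101, 139, 197 and 244 CPM on chow, a 2.50-fold rise (log2 fold change 1.32, SE 0.23, edgeR adjusted p = 0.00615). KO males had 362, 351, 452 and 369 CPM against 184, 213, 215 and 238 CPM on chow (log2 fold change 0.86, SE 0.11, edgeR adjusted p = 0.00263). Neither pair of groups overlapped, and both calls held without any one library.

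Treated KO females also exceeded WT females on chow in Aldh1a7, by 2.20-fold (log2 fold change 1.14, SE 0.12, edgeR adjusted p = 0.000326), and in Aldh1a1, by 1.58-fold (0.66, SE 0.13, edgeR adjusted p = 0.00784). Both held without any one library. In treated KO males the same comparison gave 0.76 for Aldh1a7 (SE 0.17, edgeR adjusted p = 0.157) and 0.59 for Aldh1a1 (SE 0.23, edgeR adjusted p = 0.516). Without male WT chow replicate 1 these were 0.81 (edgeR adjusted p = 0.00545) and 0.84 (edgeR adjusted p = 0.00157). In WT females SC-435 raised Aldh1a7 from 193 ± 31.2 to 286 ± 10.5 CPM (log2 fold change 0.57, SE 0.11, edgeR adjusted p = 0.0244), a call that held only without female WT chow replicate 1 or 4 (otherwise 0.0502 to 0.0892). In WT males it was 228 ± 34.1 and 334 ± 25.4 CPM without overlap (0.55, SE 0.18, edgeR adjusted p = 0.583; 0.61 and 0.0444 without male WT chow replicate 1).

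Hepatocytes around the central vein differ from the rest of the lobule in their enzymes, and 8 markers of them, among them Glul and Cyp2e1, were summed. The sum was 9370 to 10600 CPM in WT females on chow, 6170 to 6890 in KO females on chow, 11000 to 11800 in WT females on SC-435 and 8240 to 9350 in KO females on SC-435. In males it was 8990 to 21500, 3300 to 7540, 8250 to 13300 and 11500 to 11700 CPM in the same order. The marker sum thus lay lower in KO than in WT mice on chow, as did the means of Rdh16 and Aldh1a1, and higher in KO mice on SC-435 than on chow, where both genes rose. In treated KO females the marker sum stayed below that of WT females on chow, whereas the means of both genes lay above. The 7 general hepatocyte markers summed to 92700 to 119000 CPM in WT and 57300 to 78800 CPM in KO females on chow. Their sum was 84000 to 97700 CPM in KO females on SC-435. In males it was 77100 to 186000, 53700 to 83200 and 65100 to 88700 CPM in the corresponding groups, with overlap. Of the 8 central vein markers, 5 passed as lower in KO than in WT females on chow (5.05% of all genes). In males 0 of 8 passed (1.08% of all genes), or 1 lower without male WT chow replicate 1 (2.92%). The 5 markers of periportal hepatocytes summed to 2100 to 2480 CPM in WT, 2610 to 3140 CPM in KO and 2100 to 2560 CPM in treated KO females. In males they summed to 2880 to 4920, 1740 to 2940 and 2280 to 2980 CPM in that order. The part of any of these lists in the levels of Rdh16 and Aldh1a1 was not tested.

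Aldh1a2, which forms retinoic acid in stellate and mesothelial cells, was barely detected and, in females, changed in the same directions as Dhrs9. KO females on chow had 0.851, 1.43, 0.746 and 0.680 CPM against 0.284, 0.400, 0.364 and 0.332 CPM in WT females (log2 fold change 1.41, SE 0.31, edgeR adjusted p = 0.015). On SC-435 KO females had 0.444, 0.299, 0.206 and 0.387 CPM, lower than on chow by 1.46 on the log2 scale (SE 0.34, edgeR adjusted p = 0.0174). The first call held without any one library, and the second was lost without female KO chow replicate 2 or female KO SC-435 replicate 2 or 3 (edgeR adjusted p from 0.0524 to 0.0601). In males the same comparisons gave 1.45 (SE 0.43, edgeR adjusted p = 0.151) and -1.08 (SE 0.34, edgeR adjusted p = 0.0571), and the second passed without male KO chow replicate 2 (-1.28, edgeR adjusted p = 0.0248). The 11 stellate cell markers summed to 440 to 596 CPM in WT and 462 to 700 CPM in KO females on chow, and the 5 mesothelial markers to 6.67 to 10.2 and 2.55 to 9.94 CPM. Both pairs of ranges overlapped.

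**Figure D3:**
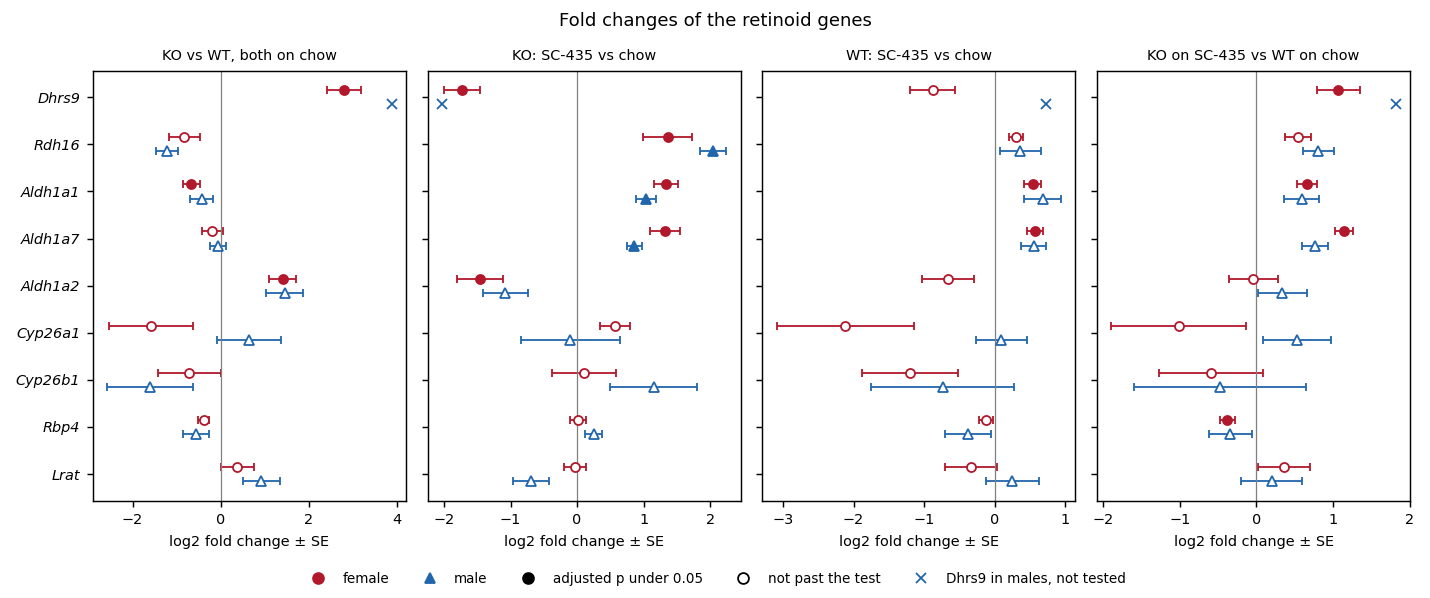
Log2 fold change ± SE of each retinoid gene in 4 comparisons, females as circles and males as triangles, filled where the edgeR adjusted p was under 0.05. Crosses mark Dhrs9 in males, which was not tested. In KO mice SC-435 raised Rdh16, Aldh1a1 and Aldh1a7 in both sexes.

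Lrat esterifies retinol for storage and Rbp4 carries it in the blood. Neither passed by edgeR in KO against WT mice on chow with all libraries. KO females had 2330, 2160, 1790 and 2050 CPM of Rbp4, all below the 2880, 2420, 2830 and 2740 CPM of WT females (log2 fold change -0.39, SE 0.12, edgeR adjusted p = 0.0532). SC-435 left Rbp4 in KO females at 2170, 2240, 2180 and 1780 CPM (log2 fold change from KO chow 0.01, SE 0.12, edgeR adjusted p = 0.968), and this treated group was below WT females on chow by 0.38 on the log2 scale (SE 0.10, edgeR adjusted p = 0.028). The call was lost without female WT chow replicate 3 or any one of the treated KO females (edgeR adjusted p from 0.0514 to 0.0662). In males Rbp4 did not pass in any comparison tested, with means from 2410 ± 326 CPM in KO on chow to 3650 ± 1660 CPM in WT on chow, where the library that stood apart had 6120 CPM. Ttr, which carries Rbp4 in plasma, fell in KO females on chow by 0.61 on the log2 scale (SE 0.16, edgeR adjusted p = 0.0273).

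Lrat was 12.5, 17.7, 23.3 and 51.4 CPM in WT females on chow and 28.6, 44.6, 39.7 and 24.7 CPM in KO females (log2 fold change 0.38, SE 0.38, edgeR adjusted p = 0.535). The 51.4 CPM is WT replicate 4. Without it the difference was 0.93 (edgeR adjusted p = 0.0448), and treated KO females, at 29.7 to 38.4 CPM, then differed from WT on chow by 0.91 (edgeR adjusted p = 0.00753; 0.36 and 0.517 with it). Males had lower means than females in each of the 4 groups, from 12.7 ± 6.09 CPM in WT on chow to 23.6 ± 9.01 CPM in KO on chow, and no tested comparison of Lrat passed in males or between WT females and males on chow (log2 fold change 1.03, SE 0.51, edgeR adjusted p = 0.533).

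The CYP26 enzymes varied widely between mice of a group. Cyp26a1 was 8.02, 16.3, 24.1 and 287 CPM in WT females on chow, where replicate 4 stood far above the rest. In KO males on chow it was 87.6, 13.8, 8.45 and 11.7 CPM, and there replicate 1 stood alone. KO females on SC-435 had the smallest spread (SD 3.71 CPM) at 42.3, 37.6, 40.4 and 46.4 CPM, all above the 18.9, 28.0, 15.2 and 15.7 CPM of WT females on SC-435.

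KO and WT mice on SC-435 were not compared by a test, and no comparison of Cyp26a1 that was tested on all mice passed. SC-435 against chow in KO females gave a log2 fold change of 0.57 (SE 0.23, edgeR adjusted p = 0.122), which passed without female KO chow replicate 2 (0.86, edgeR adjusted p = 0.0173). Treated KO females against WT females on chow gave -1.01 (SE 0.88, edgeR adjusted p = 0.472), and the sign turned without female WT chow replicate 4 (1.37, edgeR adjusted p = 0.0085). For KO against WT on chow the values were -1.58 in females (SE 0.95, edgeR adjusted p = 0.290) and 0.64 in males (SE 0.72, edgeR adjusted p = 0.701).

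Cyp26b1 was 4.06, 17.6, 19.6 and 78.4 CPM in WT females on chow and 70.1, 1.34, 15.4 and 4.23 CPM in WT males on chow. It passed in none of the comparisons tested on all mice. KO males on SC-435 had 21.7, 21, 1.4 and 20 CPM against 12.1, 6.98, 4.03 and 5.92 CPM on chow, and the rise of 1.15 (SE 0.65, edgeR adjusted p = 0.235) was 1.54 without replicate 3 of the treated group (edgeR adjusted p = 0.028). Among the 12542 genes, Cyp26b1 was the one most like Cyp26a1 over the 32 libraries (Spearman rho 0.72), ahead of Rnls (0.59), Rarb (0.58), Pik3c2g (0.57) and Ssbp3 (0.55), given as a description. Rarb encodes a retinoic acid receptor. The mouse with the highest Cyp26a1 also had the highest Cyp26b1 in 5 of the 8 groups and the highest Lrat in 4 of the 8.

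WT female replicate 4 on chow had the highest value of all mice for Cyp26a1, Cyp26b1 and Lrat, and the highest of its group for Rarb (4.49 CPM, against 2.07 to 3.47 CPM). It was not the highest of its group for Dhrs3, a retinal reductase (195 CPM, against 155 to 232), or for Rarres1 (59.2 CPM, against 43.2 to 69.2). Its library was otherwise close to its group (mean correlation 0.99, TMM factor 1.04).

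**Figure D4:**
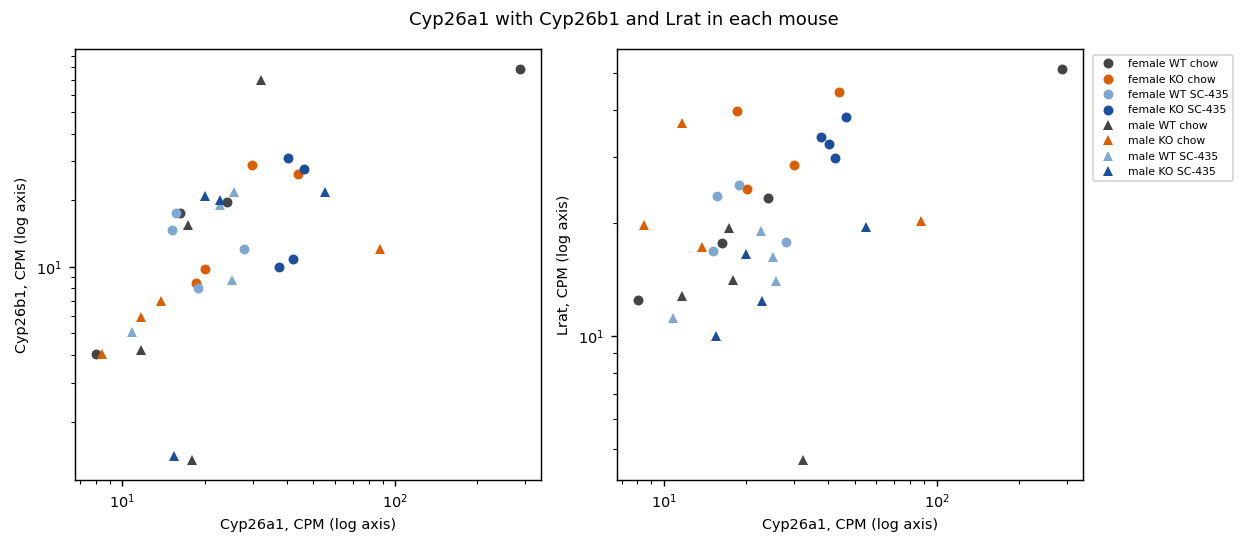
Cyp26b1 (left) and Lrat (right) against Cyp26a1 in each of the 32 mice, in CPM on log axes. One WT female on chow lies at the upper right of both panels (287 CPM Cyp26a1, 78.4 CPM Cyp26b1, 51.4 CPM Lrat), and the next highest Cyp26a1 was 87.6 CPM, in a KO male on chow.

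Counted together, 3 of the 9 genes passed in KO against WT females on chow, 2 higher (Dhrs9, Aldh1a2) and 1 lower (Aldh1a1), where 14.9% of all 16205 genes tested passed, 9.83% higher and 5.05% lower. In KO females on SC-435 against chow 5 of 9 passed, 3 higher and 2 lower (17.8% of 16332 genes, 8.56% higher and 9.23% lower). In KO males on SC-435 against chow 3 of the 8 genes tested passed, all higher (17.2% of 15984 genes, 8.8% higher and 8.36% lower; Dhrs9 is left out of every count with males). The medians of the log2 fold changes of the retinoid genes were -0.39, 0.11 and 0.55 in these comparisons, against -0.02, -0.02 and -0.03 over all genes. The KO chow groups are shared by the comparisons with WT and with SC-435, so opposite signs in the 2 are not independent.

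In WT females 2 of 9 passed on SC-435, both higher (4.28% of genes, 2.4% higher and 1.88% lower), and in treated KO females against WT females on chow 4 of 9 passed, 3 higher and 1 lower (16% of genes, 8.73% higher and 7.3% lower). In the 3 comparisons that use male WT mice on chow within males, 0 passed by edgeR. For KO against WT males on chow, 1.08% of all genes passed, 2 of 8 members had an unadjusted p under 0.05 and DESeq2 called 1. Among all 15862 genes tested there, 2444 had an unadjusted p under 0.05 and DESeq2 called 1081. For SC-435 in WT males, 0.0394% of genes passed, 2 of the 7 genes tested had an unadjusted p under 0.05 and DESeq2 called 0. Among all 15211 genes the numbers were 931 by unadjusted p and 205 by DESeq2. For treated KO against WT males on chow, 0.208% of genes passed, 3 of 8 had an unadjusted p under 0.05 and DESeq2 called 2. Among all 15395 genes the numbers were 1269 by unadjusted p and 412 by DESeq2. Without male WT chow replicate 1, edgeR called 1, 2 and 3 of the retinoid genes in these comparisons, where 7.3%, 2.53% and 12.2% of all genes passed.

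WT females and males on chow differed in 0 of 8 genes by edgeR (1.49% of all genes, or 9.53% without male WT chow replicate 1; 1 had an unadjusted p under 0.05, DESeq2 called 0), and the KO effect on chow differed between the sexes in 0 of 8 (0.0235% of all genes; 0 had an unadjusted p under 0.05, DESeq2 called 0). Among all 15525 genes of the first comparison, 1649 had an unadjusted p under 0.05 and DESeq2 called 665. Among the 17026 of the second, the numbers were 1066 and 77. The interaction of genotype and SC-435 passed for 0 of 9 genes in females by edgeR (2.64% of all genes; 4 had an unadjusted p under 0.05, DESeq2 called 1) and for 0 of 8 in males (0.0906% of all genes; 1 had an unadjusted p under 0.05, DESeq2 called 1). Among all 16882 genes in females, 3355 had an unadjusted p under 0.05 and DESeq2 called 1205. Among all 16555 in males, the numbers were 2208 and 356. Without female KO chow replicate 4, the female interaction passed for Rdh16, Aldh1a1 (0.94, edgeR adjusted p = 0.00839) and Aldh1a7 (0.97, edgeR adjusted p = 0.0139). In that fit 1644 of all 17182 genes passed, against 445 of 16882 with every library. Without female KO SC-435 replicate 4 the female interaction passed for Aldh1a1 (0.87, edgeR adjusted p = 0.0492), and 618 of all 17158 genes passed.

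The other genes of the pathway were taken from 8 lists by role, 56 genes in all. In KO against WT females on chow 2 of the 47 tested were higher and 6 lower, against 9.83% and 5.05% of all genes, with a median log2 fold change of -0.16 (-0.02 over all genes). Those higher were Rarg, a retinoic acid receptor (log2 fold change 0.73, SE 0.15, edgeR adjusted p = 0.0103), and Tgm2, a transglutaminase that retinoic acid induces (0.44, SE 0.12, edgeR adjusted p = 0.029). Those lower included the dehydrogenases Dhrs4 (-0.54, edgeR adjusted p = 0.00513) and Rdh7 (-0.39, edgeR adjusted p = 0.0226), and Rarres1, named as a responder to retinoic acid receptors (-1.61, SE 0.34, edgeR adjusted p = 0.0129). Rarres1 was 43.2, 55.9, 69.2 and 59.2 CPM in WT females and 7.85, 13.9, 23.5 and 29.9 CPM in KO females on chow, and 53.1, 55.8, 53.5 and 46.9 CPM in treated KO females. Its direction was opposite to that of Tgm2 although both are in the list of retinoic acid-induced genes.

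In KO males on chow 1 of 46 passed (0.933% of all genes were higher), Sdr16c5, a retinol dehydrogenase of epithelia. Without male WT chow replicate 1, 3 of 47 were higher and 3 lower (4.38% and 2.92% of all genes). Sdr16c5 had 1.75 to 3.61 CPM in KO males on chow (76 reads or more), 0 to 0.198 CPM in WT males on chow and 0 to 0.292 CPM in KO males on SC-435 (log2 fold change against KO chow -3.61, SE 0.60, edgeR adjusted p = 0.00685). In females it was at most 0.303 CPM in any group.

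On SC-435, 10 of 47 genes were higher and 5 lower in KO females, and 11 of 47 were higher and 4 lower in KO males. Of all genes 8.56% were higher and 9.23% lower in females, and 8.8% and 8.36% in males. The median log2 fold changes were 0.15 and 0.20, against -0.02 and -0.03 over all genes. Rdh11, a retinal reductase, had the smallest adjusted p among the higher genes in both sexes. It rose from 42.0 ± 28.5 to 288 ± 15.1 CPM in KO females (log2 fold change 2.78, SE 0.36, edgeR adjusted p = 0.00228) and from 37.4 ± 3.6 to 179 ± 32.8 CPM in KO males (2.26, SE 0.14, edgeR adjusted p = 9.5e-05). It also rose in WT females, from 81.7 ± 23.1 to 209 ± 24.5 CPM (1.36, SE 0.19, edgeR adjusted p = 0.00736). Rdh1, a retinol dehydrogenase counted at 62 reads or fewer in a library and similar in sequence to Rdh16, rose by a log2 fold change of 1.67 in KO females (SE 0.28, edgeR adjusted p = 0.00546) and 1.73 in KO males (SE 0.28, edgeR adjusted p = 0.00553).

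By role, the retinol and retinal oxidoreductases had 4 of 16 higher and 1 lower on SC-435 in KO females, and 4 of 17 higher and 1 lower in KO males, to be read against the same shares of all genes. Genes of ester storage and hydrolysis had 1 of 7 higher in KO females, Lipe (0.76, SE 0.11, edgeR adjusted p = 0.0027), and 5 of 7 higher in KO males, among them the lipase Pnpla2 (0.65, SE 0.11, edgeR adjusted p = 0.00723). Of the 6 receptors, the only one past the test on SC-435 in KO mice was Rarg, which was lower in KO males (-0.71, SE 0.12, edgeR adjusted p = 0.00771). Bco1, which cleaves carotenoids to retinal, was higher in KO females (0.54, SE 0.12, edgeR adjusted p = 0.0141) and lower in KO males (-1.02, SE 0.27, edgeR adjusted p = 0.0318) on SC-435; the difference between the sexes was not tested. The Bco1 interaction of genotype with SC-435 passed in females (0.83, SE 0.18, edgeR adjusted p = 0.0278). Bco1 was the only 1 of the 47 genes to do so there, where 2.64% of all genes passed.

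**Figure D5:**
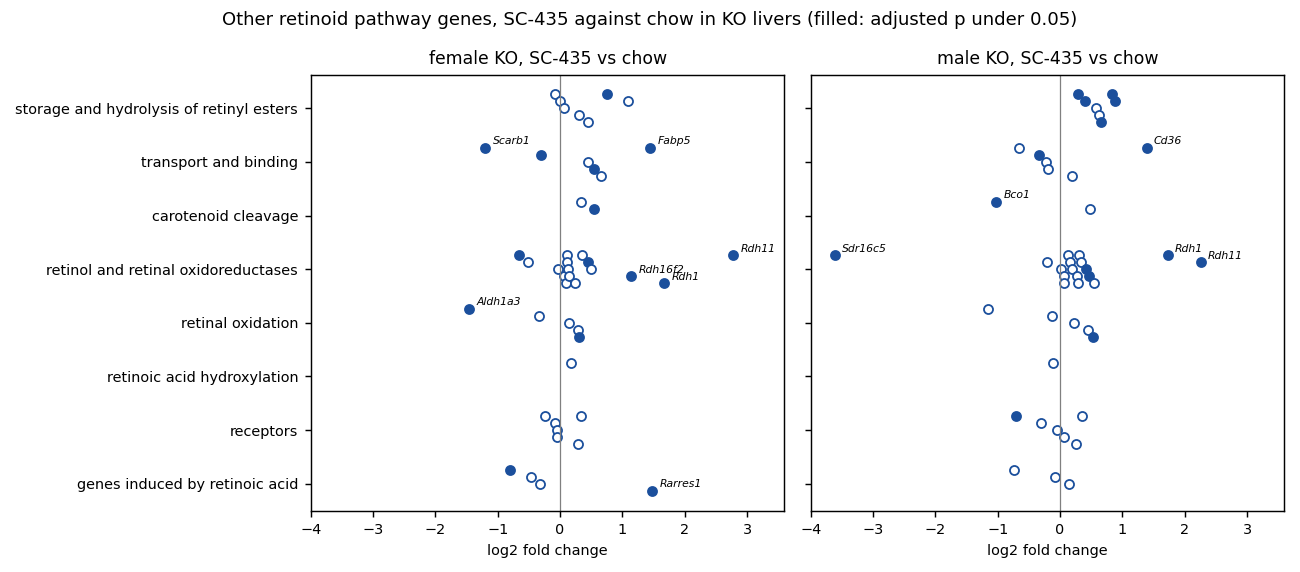
Log2 fold change on SC-435 against chow in KO females (left) and KO males (right) for the other retinoid pathway genes, 1 point per gene in rows by role, filled where the edgeR adjusted p was under 0.05. Rdh11 is farthest to the right in both panels (2.78 and 2.26), and Sdr16c5 is farthest to the left in males (-3.61).

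Treated KO females and WT females on chow differed in 7 higher and 7 lower of 46 list genes (8.73% and 7.3% of all genes). The first in each direction were Rdh11 (1.82, SE 0.18, edgeR adjusted p = 0.000209) and Adh7, an alcohol dehydrogenase (-0.81, SE 0.12, edgeR adjusted p = 0.00205). In treated KO males against WT males on chow 1 of 46 passed, Cd36, a fatty acid receptor that also takes up carotenoids (2.13, SE 0.27, edgeR adjusted p = 0.0298; 0.208% of all genes passed). Without male WT chow replicate 1, 5 of 46 were higher and 2 lower (6.47% and 5.7% of all genes). In WT mice SC-435 passed for 2 higher and 2 lower of 46 genes in females (2.4% and 1.88% of all genes), where Tgm2 fell by 0.63 on the log2 scale (SE 0.07, edgeR adjusted p = 0.00291), and for 0 of 46 in males by edgeR (0.0394% of all genes; 5 had an unadjusted p under 0.05, DESeq2 called 2). Without male WT chow replicate 1 it was 1 higher and 3 lower (1.41% and 1.12% of all genes). With every library, 931 of all 15211 genes in WT males had an unadjusted p under 0.05 and DESeq2 called 205. The genotype by SC-435 interaction in males likewise passed for 0 of 47 by edgeR (0.0906% of all genes; 10 had an unadjusted p under 0.05, DESeq2 called 3), and for 0 without male WT chow replicate 1. Among all 16555 genes of that interaction, 2208 had an unadjusted p under 0.05 and DESeq2 called 356, with every library. Between WT females and males on chow 2 list genes passed (1.49% of all genes), Cd36 higher in females and Aox3 lower. Without male WT chow replicate 1, 13 of 46 were higher in females and 5 lower (4.78% and 4.75% of all genes).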

How the data were processed

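Liver RNA was sequenced from 32 mice in 8 groups of 4, and each library is 1 mouse. Gene counts, as deposited, are whole-number reads per gene that the authors did not normalize. The submitters' processing notes name HISAT2 2.0.5, featureCounts 1.5.0-p3, DESeq2 1.20.0, GATK 4.1.1.0 and the build mm10, without saying in which order or role. The FPKM values deposited by the authors in the same table divide those counts by gene length and library size and were not used in any test. The deposited columns of the authors' own comparisons (group means, fold changes and p-values) were not used. Whether counting used strand is not given in the sources used here.

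Groups were taken from the labels. For each comparison, genes were kept by edgeR's filterByExpr, scaled by TMM and tested with the edgeR 4.0.16 quasi-likelihood test (R 4.3.3) on the libraries of that comparison, with Benjamini-Hochberg adjustment over all genes tested and a threshold of 0.05. Standard errors were taken as the log2 fold change divided by the square root of the quasi-likelihood F. Libraries held 36476021 to 44771350 counts. With 4 mice against 4, a single-gene exact permutation test cannot go below 0.0286. CPM levels used 1 TMM scaling over all 32 libraries, and per-kb levels used the deposited gene length. The text names all 9 genes, and of the pathway lists the genes with the smallest adjusted p in each direction, up to 4 per comparison, with others that a result turns on chosen after their values were seen. Single values of some listed genes are not reported here. Members and lists were chosen with earlier results of these data known. Alternatives were RLE or total-count scaling, DESeq2 1.42.0, no filter on low counts, all 4 groups of a sex in 1 fit, the replicate number as a block, and leaving out each library. List counts without male WT chow replicate 1 and marker sums without Spp1 were added after seeing the data. The tests were tested on simulated data with known changes. Sequences came from RefSeq for GRCm38.p6, and figures were drawn with matplotlib 3.10.9.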

Additional observations from a re-analysis of the deposited data

Results flagged for a closer look

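In 11 of the 72 sets of 4 mice (9 genes in 8 groups), 1 mouse lay apart from the other 3 by more than Dixon's 95% criterion for 4 values. Chance gives about 1 such set in 20, and sets of the same mouse are not independent. Libraries of 1 mouse recurred. Male WT chow replicate 1, the library with the TMM factor of 0.622, had 2080 CPM of Aldh1a1 (others 1100 to 1260 CPM) and 6120 CPM of Rbp4 (others 2610 to 2950 CPM). Male WT SC-435 replicate 4 was low in Aldh1a1 at 1770 CPM (others 2360 to 2440 CPM) and in Rbp4 at 1900 CPM (others 2990 to 3180 CPM).

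Cyp26a1 stood out in WT female replicate 4 on chow at 287 CPM (others 8.02 to 24.1 CPM) and in KO male replicate 1 on chow at 87.6 CPM (others 8.45 to 13.8 CPM). Cyp26b1 was low in KO male replicate 3 on SC-435, at 1.4 CPM (others 20 to 21.7 CPM). Rdh16 in KO female replicate 4 on chow was 179 CPM (others 57.7 to 61.4 CPM), and Lrat in KO male replicate 4 on chow was 36.9 CPM (others 17.3 to 20.2 CPM). Rbp4 was high in WT female replicate 2 on SC-435, at 2890 CPM (others 2380 to 2410 CPM), and low in KO female replicate 4 on SC-435, at 1780 CPM (others 2170 to 2240 CPM). The causes were not tested.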

How the results depend on the processing

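The number of retinoid genes past the test moved by over 1.5 times in these cases, and their causes were not tested. The number of all genes past the test in the same fits follows in parentheses. For KO against WT males on chow the number of retinoid genes was 0 (172). It was 1 with DESeq2 (1081), 1 with no filter on low counts (274) and 2 with all 4 male groups in 1 fit (1399). For SC-435 in WT females it was 2 (674), against 0 with the replicate block (375) and 0 with all 4 female groups in 1 fit (745). For treated KO against WT males on chow it was 0 (32). It was 1 with total counts only (36), 2 with DESeq2 (412) and 1 with all 4 male groups in 1 fit (158). For the interaction of genotype and SC-435 it was 0 (445 in females, 15 in males), against 1 with DESeq2 in either sex (1205 and 356). Leaving out each library gave 2 to 4 genes (1201 to 3197) for KO against WT females on chow and 0 to 1 (10 to 1196) for males. For SC-435 it gave 3 to 5 (1287 to 4403) in KO females and 3 to 4 (985 to 3370) in KO males. In WT mice SC-435 gave 0 to 3 (159 to 774) in females and 0 to 2 (1 to 394) in males. Treated KO against WT on chow gave 2 to 6 (1456 to 3174) in females and 0 to 3 (10 to 1923) in males. The interaction in females gave 0 to 3 (68 to 1644). Each such fit gave 0 for the male interaction (2 to 118), for WT females against males (117 to 1515) and for the sex difference in the KO effect (0 to 75). The log2 fold change of Cyp26a1 in treated KO against WT females on chow was -1.01, was 0.55 with the replicate block, ranged from -1.39 to 1.37 when a library was left out, and was called at 1.37 (edgeR adjusted p = 0.0085) without WT replicate 4. Scaling by total counts moved the median of all genes to 0.17 for KO against WT females, 0.29 for males, -0.18 for SC-435 in KO females and -0.23 in KO males. Same-numbered mice of the groups compared had correlated deviations of -0.21 to 0.45, and in no comparison were all 4 above 0.1, so the numbers were not taken to pair mice. With the replicate block, Aldh1a1 in KO against WT females (edgeR adjusted p = 0.0979) and Rbp4 in treated KO against WT females on chow (edgeR adjusted p = 0.0625) lost the call. Rdh16 in the latter gained it (edgeR adjusted p = 0.0421), as it did with total counts (0.0356), DESeq2 (DESeq2 adjusted p = 0.0161) and no filter (0.0225). Aldh1a1 in KO against WT females on chow also lost the call with total counts (edgeR adjusted p = 0.0637). Rbp4 in that comparison gained one with DESeq2 (DESeq2 adjusted p = 0.00977) and with all 4 female groups in 1 fit (edgeR adjusted p = 0.0153). Aldh1a2, at 4 to 74 reads in a library, is limited by depth.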
